A study of Gallus gallus with 22 samples.

Results

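The 100 genes described here were those whose pancreatic expression differed most between broilers fed the same diet. They were taken from 2189 candidates among the 17007 genes of the deposited table. A candidate had a mean log2 CPM (counts scaled to library size, on the log2 scale) of at least 5 in the pancreas, a pancreatic mean above its jejunal mean, and a gap between those means of under 6. A single gene, ENSGALG00010021038, was left out by rule. It was linked to PTGS2, which the study reported as higher in the pancreas of birds fed sugarcane bagasse. The candidates were ranked by the pooled within-diet standard deviation (SD) over the pancreas libraries, and the top 100 were kept. The members were thus chosen by their spread within each diet in these libraries, and that spread is given below as a description without a test.

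The animals were Ross 308 male broilers sampled on d 24. All ate a pelleted diet of coarsely ground corn and soybean meal, which was fed alone (control) or with 2% sugarcane bagasse (SB), the fibrous residue of cane milling, added on top. Each library came from 1 bird, with 6 control and 5 SB libraries from the pancreas and 5 control and 6 SB libraries from the proximal jejunum. The authors had left out outlier samples found by principal component analysis, so the spread below is that of the birds they retained.

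The pancreas is mostly exocrine tissue. Its acinar cells make and store digestive enzymes, and a few enzyme genes supply a large part of the messenger RNA. Islet, duct, vascular, immune and connective tissue cells make up the rest, and a small tissue piece can hold them in varying amounts. In such bulk samples, fewer cells of a type and less RNA per cell cannot be told apart. The deposited tables gave Ensembl identifiers without gene names. Symbols could be linked only to genes on the study's list of differentially expressed genes (DEGs). The tissue label and the other cell types were therefore not checked against marker genes here. Only 4 of the 100 members could be linked to a symbol. The other members are called by their rank.

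Total counts ran from 65957320 to 166039437 in the control and from 80467800 to 300479804 in the SB pancreas libraries. The medians were 7.41e+07 and 1.86e+08, so depth differed between the diets. The members were well counted: the lowest count of any member in any pancreas library was 93, and the median of the members' lowest counts was 994.5. The 10 most abundant genes, none of them a member, took from 50.1% to 60.2% of all counts in a pancreas library.

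The within-diet SD fell from 2.35 log2 units at rank 1 to 0.663 at rank 91, 0.610 at rank 100 and 0.574 at rank 110. The first gene outside had an SD of 0.609, so the boundary separated genes of almost equal spread. The median was 0.909 over the members and 0.221 over all candidates, and 40 members had an SD above 1. From its lowest to its highest library a member spanned 1.56 to 6.68 log2 units, with a median of 2.58. The spread was seldom owed to 1 bird, because a single library held more than 50% of the squared deviation in only 3 members (ranks 28, 64 and 73). Control 4 was the library farthest from its diet mean for 37 members, control 5 for 18 and control 2 for 14. The SD was larger among the control than among the SB birds for 78 members, and also for 65.6% of all candidates.

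**Figure D1:**
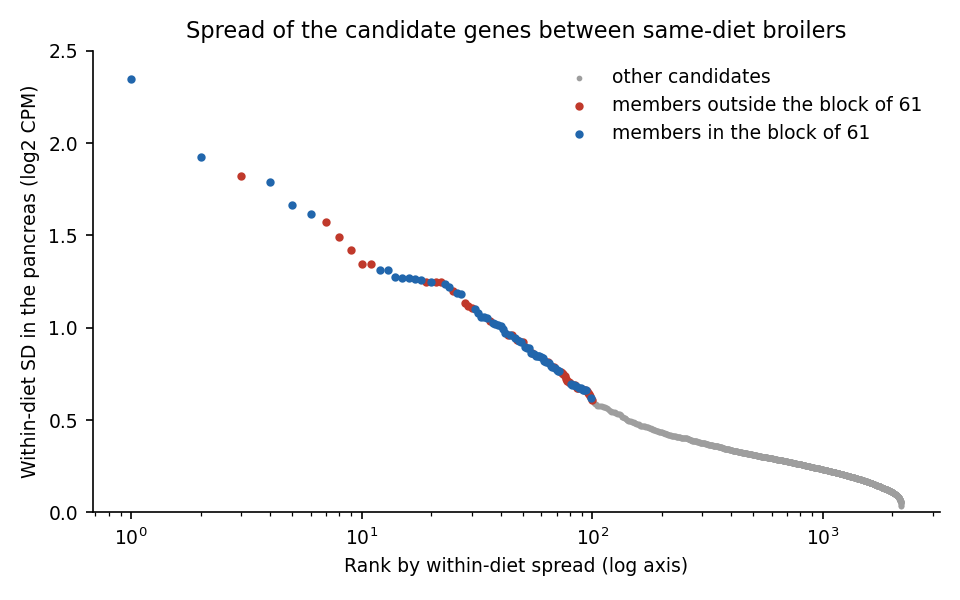
Within-diet SD in the pancreas (log2 CPM, vertical axis) against the rank of each of the 2189 candidates (log axis). Blue points are the 61 members of the largest co-varying block, red points the other 39 members and grey points the candidates not taken; the curve passes rank 100 without a step (0.610 against 0.609).

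The member with the largest spread was ENSGALG00010013954 (rank 1). In the control pancreas it ran from a log2 CPM of 1.60 in control 5 through a median of 6.28 to 8.29 in control 6, and the SB 1 to SB 5 values were 6.51, 2.92, 6.31, 6.59 and 2.04. Control 5, SB 2 and SB 5 were low and the other birds of both diets were much higher. ENSGALG00010021083 (rank 2) had its lowest control value of 2.09 again in control 5, a control median of 6.04, its highest control value of 7.84 again in control 6, and SB values of 5.81, 2.98, 5.97, 6.78 and 3.76. Within diets the deviations of these genes were nearly parallel (Pearson's r = 0.967 over the 11 libraries). They were also parallel in the jejunum, whose spread the rule did not use (r = 0.842 over 11 libraries), and there both varied widely as well, with SDs of 1.60 and 1.26.

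ENSGALG00010022412 (rank 3) followed a pattern of its own and joined no other member. Its control values ran from 2.51 in control 6 through a median of 4.03 to 6.82 in control 4, and its SB values were 7.86, 4.29, 5.90, 7.33 and 3.58. Control 5 was also high at 6.39, although that bird was lowest for ranks 1 and 2. In the jejunum this gene was weakly expressed and steady, from 1.07 to 2.09 with an SD of 0.323.

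The members at ranks 4 and 5 varied little in the jejunum, with SDs of 0.296 and 0.222 there. Rank 4 had control values from 4.89 through a median of 6.72 to 9.58, and SB values of 7.71, 4.92, 7.06, 7.13 and 6.26. ENSGALG00010021021 (rank 5) was the most abundant of the 61 members of the block described next, with a pancreatic mean of 11.04 against a jejunal mean of 5.66. Its control values ran from 8.13 in control 5 through a median of 11.14 to 13.00 in control 2, and its SB values were 13.64, 9.13, 11.81, 11.04 and 11.05. The highest value of all was therefore in SB 1 and the lowest in control 5.

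To see which members varied together, their within-diet deviations were correlated and the genes were joined in an average linkage tree, divided at a correlation distance of 0.4. A group of 5 or more members was called a block. The tree gave 20 groups, of which 2 were blocks, with 61 and 6 members. Of the 33 members outside the blocks, 26 fell in 11 groups of 2 or 3 and 7 stood alone. The members were chosen in these libraries, so the correlations describe them and are not tests.

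**Figure D2:**
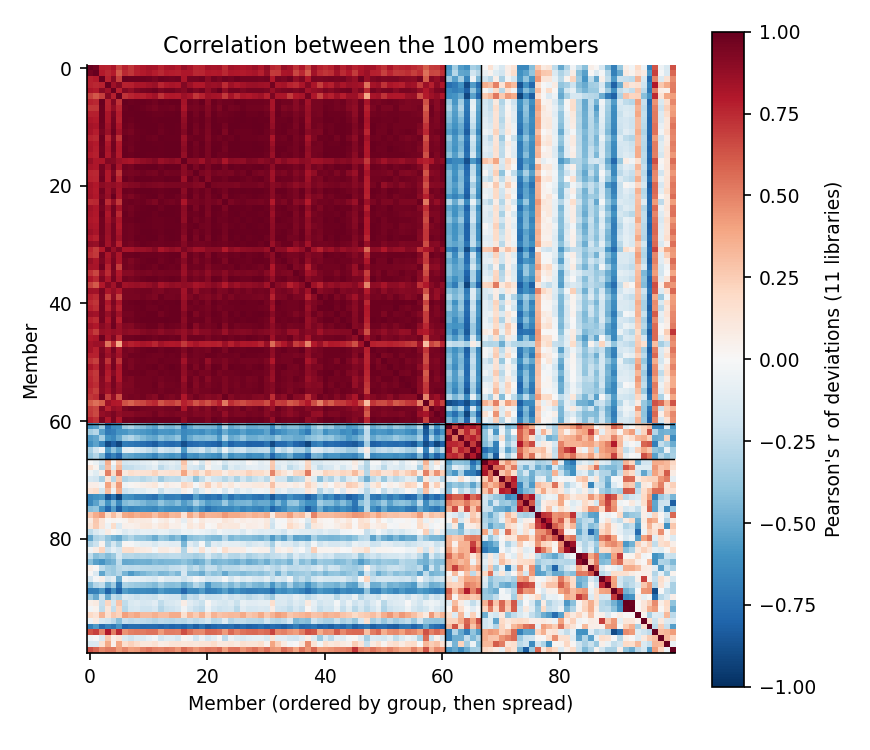
Pearson's r between the within-diet deviations of every pair of the 100 members over the 11 pancreas libraries (colour scale from -1 to 1), ordered by group and then by spread, with lines around the blocks. The red square at the upper left is the block of 61 (median r 0.954), the small one next to it the block of 6 (median r 0.751), and the remaining members show few shared patterns.

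The block of 61 moved almost as 1 pattern. The median correlation between its members was 0.954, the range was 0.306 to 0.998, and 1335 of its 1830 pairs reached 0.9. The mean log2 CPM over the block was 5.73, 7.61, 5.45, 7.76, 5.16 and 7.12 in control 1 to control 6, and 7.23, 5.62, 6.66, 6.36 and 5.76 in SB 1 to SB 5. Control 4, control 2, SB 1 and control 6 were highest and control 5 was lowest, 2.60 log2 units below control 4. At the level of single genes, control 4 gave the highest value for 44 of the 61 members and control 5 the lowest for 41, and in 50 members the top 4 places went to control 2, control 4, control 6 and SB 1.

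The block was made of genes expressed at moderate levels in both tissues. Its median mean log2 CPM was 5.95 in the pancreas and 5.05 in the jejunum, the gap was under 1 for 32 members and over 3 for only 4, and 6 members had a pancreatic mean of 8 or more. The exceptions included rank 12, with a jejunal mean of 0.56, and rank 5, whose gap was the widest of the block at 5.38. The SD was larger among control than SB birds for 60 of the 61 members, and for 65.6% of all candidates. Since the block moved almost as 1 pattern, these 60 are not separate observations.

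The block followed the main axis of variation in the pancreas. Component 1 of a principal component analysis over the 3924 genes with a pancreatic mean of 5 or more held 49.4% of their variance. The members were 2.55% of those genes and carried 23.8% of that variance, so they helped to define the component. Leaving them out changed little: the component then held 47.5%, and its library scores correlated with the first set at r = 0.994. The median r with component 1 was 0.953 over the block of 61 (0.661 to 0.979), and 0.922 with the component made without the members. In all, 57 members had an r of at least 0.8 and all of them belonged to this block, which left ranks 1, 2, 69 and 91 below that level. Among the 2089 other candidates an r of at least 0.8 was found for 79 genes (3.78%), whereas 630 (30.2%) had an r of -0.8 or less, a value that only 2 members reached. Over all 3924 genes of the component, 283 had an r of at least 0.8 and 895 one of -0.8 or less. The pattern of the block was thus shared by many genes that were not candidates.

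The abundant genes moved the other way along component 1. All 10 of the most abundant pancreatic genes had a negative r with it, from -0.920 to -0.316. From the highest to the lowest component score the libraries were control 2, control 4, SB 1, control 6, SB 3, SB 4, SB 5, control 1, control 3, SB 2 and control 5. In that order the share of counts in the 10 top genes was 50.1%, 51.6%, 52.0%, 53.5%, 57.1%, 57.8%, 60.2%, 60.0%, 56.9%, 56.9% and 59.8%. The libraries in which the block stood highest were thus those with the lowest share for the most abundant genes. The mean of the block spanned 2.60 log2 units between control 5 and control 4 on the deposited scale. Without a scaling factor per library, it spanned 3.25 between the same libraries on all totals and 2.98 on totals without those 10 genes. The deposited scale has such factors, so the 2.98 compares with the 3.25 and not with the 2.60. Both scales without factors were chosen after seeing the data. The part of the share in the block's spread was not tested further.

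**Figure D3:**
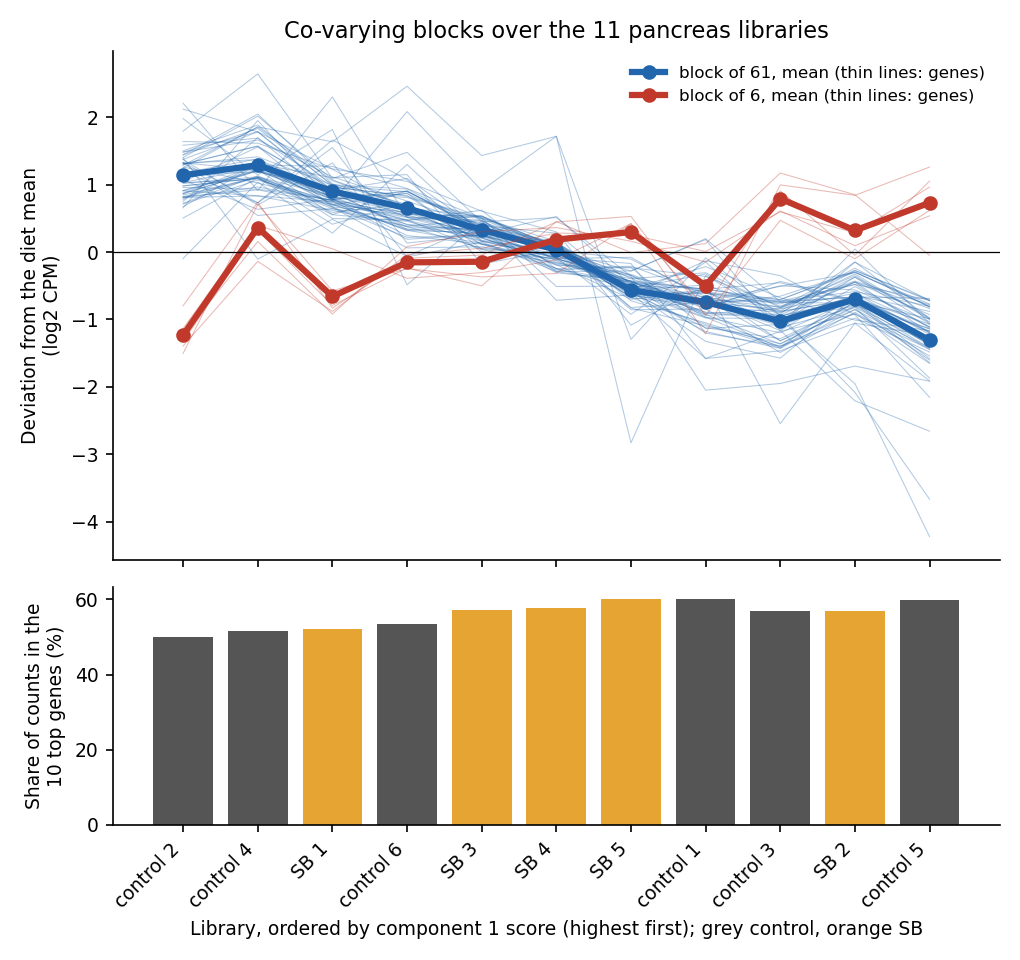
Top, deviation of log2 CPM from the diet mean in each pancreas library for the genes of the block of 61 (thin blue lines) and of 6 (thin red lines), with the block means as thick lines; bottom, the share of counts in the 10 most abundant genes (bars, %). Libraries are ordered by component 1 score, and the blue mean falls from 1.14 in control 2 and 1.29 in control 4 to -1.31 in control 5. The share is lowest in control 2, control 4, SB 1 and control 6 (50.1% to 53.5%). In the remaining libraries it lies between 56.9% and 60.2% and does not follow the order.

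The block of 6 held ranks 43, 74, 79, 84, 95 and 100. Its median correlation was 0.751, from 0.552 to 0.948. Its mean log2 CPM was 5.69, 4.96, 6.99, 6.56, 6.93 and 6.04 in control 1 to control 6, and 6.00, 6.98, 6.51, 6.84 and 6.95 in SB 1 to SB 5. This block was less firm than the large one: with Spearman correlations 4 of its members stayed together, with the tree divided at 0.3 only 3 did, and without control 2 also 3, and in the first and second of these settings no block but the large one was left. Control 2 was lowest, whereas control 3, SB 2, SB 5 and control 5 were highest. All 6 members had a negative r with component 1, with a median of -0.558 and a range of -0.848 to -0.369. These genes were more restricted to the pancreas than the large block, with median means of 6.59 in the pancreas and 3.35 in the jejunum. Rank 43, the most variable of them, ran from 3.52 in control 2 through a control median of 5.26 to 6.28 in control 5, and its SB values were 4.91, 6.33, 5.12, 5.17 and 5.91.

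The 39 members outside the large block shared little. The median correlation between them was 0.049, and their median gap between the tissues was 3.45 log2 units, with 23 members over 3, against 0.96 in the block of 61 and 0.71 in the candidates not taken. Several belonged to tight pairs, such as ranks 22 and 30 (r = 0.882) and ranks 21 and 76 (r = 0.844). Rank 7 grouped with ranks 77 and 93, rank 9 with ranks 55 and 90, and rank 19 with ranks 29 and 47. Rank 11 stood alone with 2 low libraries, control 2 at 2.71 and SB 2 at 3.02, and all other values between 4.54 and 6.45. Rank 28 showed a single high library, SB 5 at 7.92, with the remaining values between 3.34 and 5.32.

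Jejunal spread played no role in the choice of the genes, so it was set beside the pancreatic spread. The median jejunal SD was 0.325 over the members, 0.173 over the other 2089 candidates, and 0.217 over the 11575 genes with a jejunal mean over 1. An SD above 0.5 in the jejunum was found for 25 members, against 2.78% of the other candidates and 10.1% of those 11575 genes. These 25 were 7 of the 61 block members and 18 of the other 39. In total 96 members were above the median of the other candidates, and for 9 members the jejunum was the more variable tissue. The widest gap of that kind was at rank 93, with an SD of 1.59 in the jejunum and 0.662 in the pancreas, but its mean in the jejunum was only -0.14, and 9 members had jejunal means below 1, where counts are few.

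**Figure D4:**
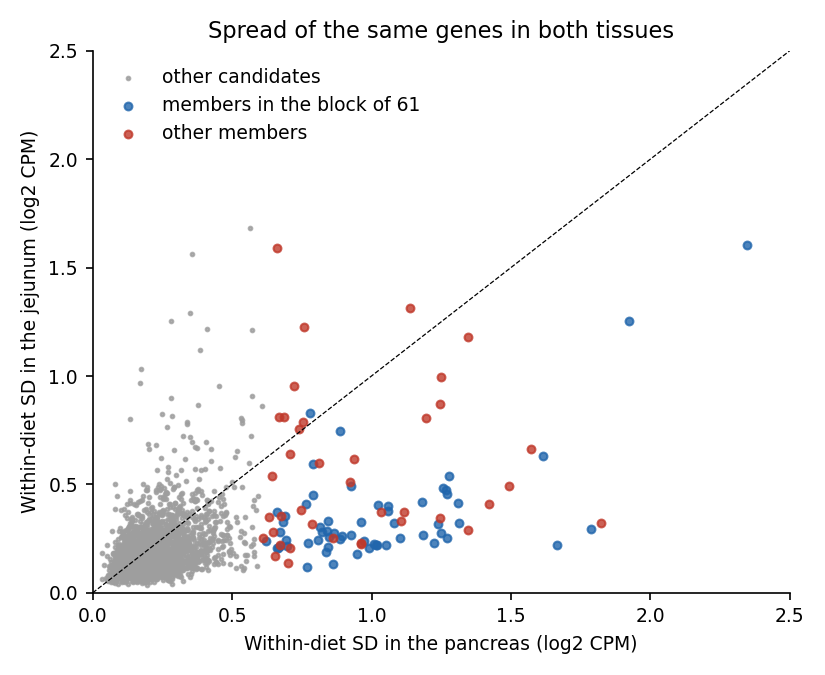
Within-diet SD in the jejunum (vertical axis) against that in the pancreas (horizontal axis), both in log2 CPM, for members of the block of 61 (blue), other members (red) and other candidates (grey); the dashed line marks equal spread. Members lie to the right because the pancreatic SD chose them, and most lie below the line, with 9 above it.

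The block of 61 was also partly held together in the jejunum. The median correlation between its members there was 0.407 over the 11 jejunal libraries, against 0.035 between the other candidates, whose median in the pancreas was 0.343. For 35 of the 61 members the jejunal deviations correlated at more than 0.6 with the mean of the remaining block members. That count was not made for other genes. No equally tight set of other candidates was examined, so whether the jejunal link is particular to this block was not tested. The block of 6 showed no such link, with a median jejunal correlation of -0.144. In the block of 61, jejunal SB 4 was often the highest jejunal library, as at rank 1 (7.06) and rank 24 (10.18). At rank 5 it was instead the lowest (5.22). The library number of jejunal SB 4 differs from that of pancreas SB 4. No jejunal library was left out in turn, so how far the jejunal correlations rest on that bird was not tested.

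The methods state that both tissues came from the same broiler, and 10 library numbers occurred in both, 5 per diet. Over these pairs a high pancreatic value of the block of 61 did not go with a high jejunal value. The median correlation of pancreatic with jejunal deviations was -0.198, and none of the 61 members exceeded 0.6. Since the block moved almost as 1 pattern in the pancreas, these 61 are not separate observations. The correlation exceeded 0.6 in 3 of the other members, rank 21 (0.826), rank 30 (0.698) and rank 25 (0.639), and in 12.6% of the other candidates. That a shared number marks the same bird was not stated in the labels.

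The diet comparison asked whether the same genes also differed between control and SB birds. All fold changes are SB minus control. Of the 14116 pancreatic genes tested with edgeR, 155 (1.10%) passed both thresholds of the study, a log2 fold change of 1 or more in size together with an unadjusted P under 0.05, with 93 (0.659%) higher and 62 (0.439%) lower in SB. That balance turned over in some settings, with 72 higher and 164 lower without SB 1, and 97 and 115 without control 5. It was also turned over at 90 and 102 without control 3, and at 148 and 184 without the filter on low counts. The legacy fit gave 125 genes, 89 higher and 36 lower in SB. Those are the counts that the study itself reported for the pancreas, so the main fit used here differs from the study's result. Among the 100 members, 4 passed, with 1 higher (CDH23) and 3 lower (DUSP6, PLEKHM3 and CARF). All 100 members passed the filter on low counts. A log2 fold change of 1 or more in size was found for 11 members, against 2.54% of all genes, and an unadjusted P under 0.05 for 5 members, against 3.85% of all genes. Genes chosen for a large spread between birds reach large fold changes more often without any diet effect. The higher shares of members in size and past both thresholds therefore cannot be read as a response to diet. After Benjamini-Hochberg adjustment over all genes edgeR called none (0%), although 543 genes had an unadjusted P under 0.05. The members' adjusted p ran from 0.995 to 0.997. DESeq2 called 15 genes after adjustment, none of them a member, and limma-voom called 0. The diets' ranges did not overlap for 0.298% of all genes and for 0 members.

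DUSP6 (ENSGALG00010013226, rank 98; GRCg7b chromosome 1, 43341540 to 43346237) encodes a phosphatase that switches off the kinase ERK in mammals. In the control pancreas its log2 CPM ran from 6.17 through a median of 7.04 to 8.06, and the SB values were 6.01, 5.51, 6.73, 5.79 and 6.25. Control 1 and control 3 were the highest, and the ranges overlapped between 6.17 and 6.73. The log2 fold change was -1.11 (SE 0.35) by edgeR (unadjusted P = 0.00824, adjusted p = 0.995). An exact two-sided permutation test of the mean log2 CPM gave p = 0.0346, unadjusted, where 462 regroupings allow no value below 0.00216. DUSP6 varied with the members at ranks 8 (r = 0.796) and 50 (r = 0.748). Rank 50 had a log2 fold change of -1.08 and missed the threshold at an unadjusted P of 0.0511 by edgeR, and rank 8 had one of -0.33.

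PLEKHM3 (ENSGALG00010025312, rank 80; GRCg7b chromosome 7, 11631766 to 11764483) and CARF (ENSGALG00010025262, rank 78; chromosome 7, 11598924 to 11635638) lie side by side, and their RefSeq spans share 3873 bases. The counts were made on Ensembl genes, whose spans were not available here and may differ. PLEKHM3 encodes a protein with pleckstrin homology domains, and CARF a transcription factor that responds to calcium in mammalian neurons. How counting treated strand and shared stretches was not given in the sources used here. If the counted genes overlap too, reads from the shared stretch could have gone to either gene or to neither. These values are therefore uncertain as separate measurements.

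In the control pancreas PLEKHM3 ran from 5.76 through a median of 6.49 to 7.55, and its SB values were 6.24, 5.44, 5.02, 5.51 and 5.84. CARF ran from 6.02 through a median of 6.67 to 7.88 in the control group, and its SB values were 6.74, 5.61, 5.33, 5.75 and 5.97. For both genes control 1, control 3 and control 4 were above every SB bird, and the other control birds lay within the SB range. The within-diet deviations of the pair correlated at r = 0.984 in the pancreas and 0.365 in the jejunum.

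PLEKHM3 had a log2 fold change of -1.16 (SE 0.38) by edgeR (unadjusted P = 0.0106, adjusted p = 0.995). CARF had one of -1.10 (SE 0.39) by edgeR (unadjusted P = 0.0166, adjusted p = 0.995). The exact permutation test gave p = 0.0563 for PLEKHM3 and p = 0.0584 for CARF, both two-sided and unadjusted.

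CDH23 (ENSGALG00010020041, rank 36; GRCg7b chromosome 6, 12518477 to 12647045) encodes a cadherin known from the tip links of sensory hair cells in mammals. It ran from 3.88 through a median of 4.92 to 6.23 in the control pancreas, and the SB values were 5.85, 4.79, 5.95, 7.06 and 7.53. SB 4 and SB 5 were above every control bird, whereas SB 2 was below the control median. The log2 fold change was 1.28 (SE 0.54) by edgeR (unadjusted P = 0.0375, adjusted p = 0.995), and the exact permutation test gave p = 0.0779. The gene it grouped with, rank 75 (r = 0.761), had a log2 fold change of the opposite sign, -0.66.

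As calls past both thresholds, all of these rested on few birds. Leaving out control 1 left 0 members past both thresholds and leaving out control 3 left 1, which was none of these 4, whereas leaving out control 5 or SB 1 gave 7. Without control 1 the log2 fold changes were -0.84 for DUSP6, -0.95 for PLEKHM3 and -0.85 for CARF, and CDH23 reached 1.23 with an unadjusted P of 0.0655 by edgeR. Whichever library was left out, the unadjusted P by edgeR stayed under 0.05 for DUSP6, PLEKHM3 and CARF. Its largest values were 0.0226, 0.027 and 0.042 in that order. These genes thus missed only the fold change threshold, whereas CDH23 missed the P threshold.

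**Figure D5:**
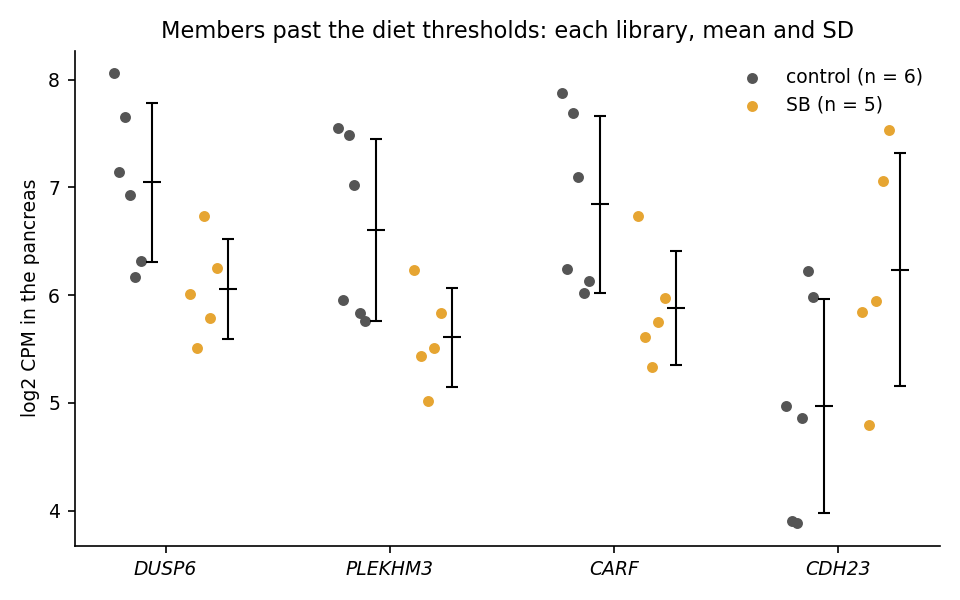
log2 CPM in the pancreas of the 4 members past both diet thresholds, with 1 point per library (grey control, orange SB) and the mean and SD beside them. The diets overlap for each gene: DUSP6, PLEKHM3 and CARF have higher means in control (7.05, 6.60 and 6.84) than in SB (6.06, 5.61 and 5.88), and CDH23 has a lower one (4.97 against 6.24).

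In the jejunum these genes were less variable. DUSP6 ran there from 2.90 through a median of 3.29 to 4.22, CDH23 from 1.16 through 1.56 to 2.27, PLEKHM3 from 5.13 through 5.38 to 5.60 and CARF from 4.15 through 4.40 to 4.64. In the pancreas none of the 4 followed component 1, with r values of 0.06, -0.20, 0.02 and 0.07 in that order.

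The large block showed no called diet difference. Its fitted log2 fold change was below 0 for 57 of the 61 members, with a median of -0.42, but the lowest unadjusted P by edgeR was 0.116. The block mean was 6.47 ± 1.16 (SD, n = 6) in control and 6.33 ± 0.660 (SD, n = 5) in SB, a gap much smaller than the spread between birds. The difference of mean log2 CPM was also smaller than the fitted fold change, with a median of -0.14: the fit compares counts, and this difference compares means of logs. The median log2 fold change was -0.01 over all genes tested and -0.36 over the members, of which 76 were below 0. Of these 76, 57 belonged to the large block, whose genes moved together, so they are not separate observations. Among the members outside that block, 20 were above 0 and 19 below 0, with a median log2 fold change of 0.04. The members as a set thus showed no lower level in SB apart from that block.

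In the block of 6, the fitted log2 fold change was above 0 for 5 members, with a median of 0.27. Rank 74 was the only one with an unadjusted P under 0.05. Its control values ran from 3.45 through a median of 4.82 to 5.95, and its SB values were 5.02, 6.67, 5.32, 6.27 and 5.81. SB 2 and SB 4 were above every control bird. The log2 fold change was 0.96 (SE 0.40) by edgeR (unadjusted P = 0.0332, adjusted p = 0.995), and the exact permutation test gave p = 0.0476.

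None of the 5 most variable members passed the diet thresholds, although the first 4 had fitted differences of 1 or more in size. The log2 fold change was -1.15 for ENSGALG00010013954 and -1.03 for ENSGALG00010021083, with unadjusted P of 0.281 and 0.263 by edgeR. When 1 library was left out these values ran from -1.45 (without SB 4) to -0.61 (without control 6) and from -1.56 (without SB 4) to -0.62 (without control 6). ENSGALG00010022412 had a value of 1.24 (unadjusted P of 0.204 by edgeR), and rank 4 one of -1.22 (0.191), while the mean log2 CPM of the latter was 6.94 in control and 6.62 in SB. The first of these ran from 0.63 (without SB 1) to 1.89 (without control 4), and that at rank 4 from -1.52 (without SB 1) to -0.56 (without control 4). For ENSGALG00010021021 the value was smaller, at 0.54 (0.530), and it turned to -0.46 without SB 1.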

How the data were processed

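The authors used Trimmomatic for trimming, STAR for alignment to GRCg7b and HTSeq for counting, and deposited raw counts per gene. The deposited log2 values are edgeR log2 CPM (prior count 2, trimmed mean of M-values (TMM) factors of all 22 libraries together), and 374154 of 374154 were recomputed from the counts with a tolerance of 1e-06. The count totals exceed the read numbers stated in the study, so how a count relates to a read is not known here. Per the methods, 1 broiler per pen gave both tissues, so the libraries of a tissue are separate birds.

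Diets were compared with edgeR 4.0.16 (quasi-likelihood F test, legacy = FALSE, R 4.3.3) after filterByExpr (minimum count 10, minimum total 15). Benjamini-Hochberg adjustment was made over all 14116 genes tested. The script was tested on simulated counts in which all genes had the same variability between libraries and no shared pattern. That test therefore does not cover genes that vary as the members do. Alternatives were limma 3.58.1, DESeq2 1.42.0, other filters and scalings, counts thinned to equal depth, a replicate block and leaving out each library.

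The members, the gene lists and the tests were chosen with earlier results of these data known. Named were the members past both diet thresholds, the 5 of largest SD, the genes on either side of the boundary, and members with a symbol in each block (none had one) or in a list; at most 4 members without a symbol are given by identifier. Any other rank was singled out after its values were seen. Symbols came from a supplementary list of the study's DEGs, matched by fold change and P to 3 decimals. The match used a separate edgeR fit with legacy = TRUE and robust = TRUE, not the fit that gave the values above. In it, 123 of 125 entries matched 1 gene, and the 30 entries given by identifier all fell on their own identifier. Positions come from the RefSeq table of GRCg7b, which has no Ensembl identifiers for these genes, so they are not those of the counted Ensembl genes. Lists of cell type markers and pathways were not analysed here, since only genes on that DEG list could be linked to symbols.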

Additional observations from a re-analysis of the deposited data

Results flagged for a closer look

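Among 28 groups of values examined for a library far from the rest of its diet group, 2 stood out. The groups share libraries and genes, so this number was not compared with what chance would give. The member at rank 100 had a log2 CPM of 6.27 in SB 1, and the nearest SB library was at 7.28. The total count of control 6 was 166039437, and the nearest control library of the pancreas had 81473749.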

How the results depend on the processing

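With the 100 members held fixed, the largest block kept 60 or 61 of its 61 genes under every setting tried. These included scalings without TMM factors or without the 10 most abundant genes, which were chosen after seeing the data. Members were not chosen again for the blocks, so whether the block returns among members chosen under another setting was not tested. The number of blocks was 1 with Spearman correlations or with the tree divided at 0.3 (the block of 6 was the one lost), 4 with it divided at 0.5, and 2 to 3 when libraries were left out. The choice of members depended on the minimum pancreatic mean, with 42 of the 100 shared at a minimum of 3 and 1 without a minimum, and 88 to 97 shared when 1 library was left out. Members past both diet thresholds numbered 0 to 7 and those at an unadjusted P under 0.05 numbered 3 to 8 when 1 library was left out; DESeq2 gave 8 of the latter. All genes past both thresholds numbered 100 with limma-voom, 332 without a filter, 60 with at least 1 CPM in 5 libraries, and 144 to 236 when 1 library was left out. With counts thinned to equal depth, 142 of all genes and 4 members passed both thresholds. CDH23 missed the P threshold without control 1, 2, 3 or 4 or SB 4 or 5, and without SB 5 also that for the fold change (0.86). The other named genes missed the fold change threshold only. This was DUSP6 without control 1 or 3 or SB 2, CARF without control 1 or 3 or SB 3, and PLEKHM3 without control 1 or 3. ENSGALG00010021021 had log2 fold changes of -0.46 (without SB 1) to 1.20 when 1 library was left out. Component 1 held 46.7% to 54.0% when 1 library was left out. The adjusted p of DUSP6 by edgeR or limma-voom stayed at 0.672 or more, and DESeq2 gave 0.250.

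With a replicate block, 4 members passed both thresholds, 325 of all genes had an unadjusted P under 0.05, and the log2 fold change at rank 4 turned to 0.20. Control and SB libraries with the same replicate number correlated from -0.523 to 0.203. These replicate numbers are not the library numbers that were matched between tissues. Control and SB libraries came from different birds, so a shared replicate number cannot mark the same bird. Differently numbered libraries were not set beside them, so whether replicate numbers mark any other pairing was not decided. Why results moved was not tested.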
